A study of Rattus norvegicus with 7 samples.

Results

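The genes followed here belong to the cellular response to low oxygen in rat testis after cadmium: *Bnip3*, *Vegfa*, *Adm*, *Hif1a*, *Slc2a1*, *Hk2*, *Pfkfb3*, *Ldha*, *Pgk1* and *Egln3*. They were 10 of 14217 genes with a probe set of their own on the array, and every probe set assigned to one of them alone was taken, 15 in all. The genes were put together with results of these arrays in view, chiefly the high signals of *Bnip3*, *Vegfa* and *Adm* on 1 of the 2 arrays taken 20 h after cadmium. Their values at 20 h are therefore a description without a test.

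The animals were adult male Sprague-Dawley rats, an outbred stock. They were left untreated (0 h, n = 3), or received cadmium chloride, a toxic heavy-metal salt, once into the peritoneum at 3 mg/kg body weight; these were killed after 8 h (n = 2) or 20 h (n = 2). Each array is labelled as a biological replicate and is read here as 1 animal; no vehicle-injected group is described, so injection and cadmium were not separated. The measured value was the signal of a probe set, a group of short probes for 1 transcript, on an Affymetrix Rat230_2 array.

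Cells sense oxygen through hypoxia-inducible factor, a pair of proteins of which Hif1a is the regulated subunit. When oxygen is present, prolyl hydroxylases such as Egln3 mark Hif1a for destruction; when oxygen falls, Hif1a persists, binds DNA at a core that reads ACGTG or GCGTG, and raises transcription of genes for vessel growth, glucose uptake, glycolysis and mitochondrial turnover. In the testis the seminiferous epithelium has no vessels of its own, and its germ cells carry abundant and partly germ-cell-specific glycolytic enzymes.

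The bases before the RefSeq start of 5 of these genes (GRCr8) are shown because these genes carry the contrast described next: *Bnip3*, *Vegfa* and *Adm* had the widest range over the arrays, *Slc2a1* was above the untreated mean on all 4 cadmium arrays, and *Ldha* on 20 h replicate 1 lay at the untreated mean. Each is the 250 bases that precede the gene start, 5′ to 3′ on the strand of the gene, with each match in capitals. The motifs searched were ACGTG, with its complement CACGT on the other strand, and also GCGTG, with its complement CACGC on the other strand. Matches on the 2 strands overlap where the window reads CACGTG. The regions are chr1:203154963-203155212 (minus strand) for *Bnip3*, chr9:22452604-22452853 (plus) for *Vegfa*, chr1:174179950-174180199 (plus) for *Adm*, chr5:138002272-138002521 (plus) for *Slc2a1* and chr1:106507842-106508091 (plus) for *Ldha*.
Bnip3: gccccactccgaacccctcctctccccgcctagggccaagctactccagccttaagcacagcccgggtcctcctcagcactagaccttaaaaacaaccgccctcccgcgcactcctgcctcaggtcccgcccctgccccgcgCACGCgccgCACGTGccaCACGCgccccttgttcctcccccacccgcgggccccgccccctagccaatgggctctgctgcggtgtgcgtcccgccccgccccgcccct
Vegfa: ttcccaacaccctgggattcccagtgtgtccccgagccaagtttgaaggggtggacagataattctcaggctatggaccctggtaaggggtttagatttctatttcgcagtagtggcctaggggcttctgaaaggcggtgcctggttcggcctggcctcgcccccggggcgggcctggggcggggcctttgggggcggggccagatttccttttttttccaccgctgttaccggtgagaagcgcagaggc
Adm: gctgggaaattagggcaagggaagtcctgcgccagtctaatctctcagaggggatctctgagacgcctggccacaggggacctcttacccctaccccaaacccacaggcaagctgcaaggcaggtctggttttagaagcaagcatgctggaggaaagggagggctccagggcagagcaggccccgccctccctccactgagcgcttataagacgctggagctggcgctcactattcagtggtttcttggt
Slc2a1: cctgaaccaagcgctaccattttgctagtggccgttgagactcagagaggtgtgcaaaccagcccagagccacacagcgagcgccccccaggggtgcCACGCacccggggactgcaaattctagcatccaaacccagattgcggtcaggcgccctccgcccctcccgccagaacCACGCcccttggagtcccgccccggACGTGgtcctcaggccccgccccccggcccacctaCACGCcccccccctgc
Ldha: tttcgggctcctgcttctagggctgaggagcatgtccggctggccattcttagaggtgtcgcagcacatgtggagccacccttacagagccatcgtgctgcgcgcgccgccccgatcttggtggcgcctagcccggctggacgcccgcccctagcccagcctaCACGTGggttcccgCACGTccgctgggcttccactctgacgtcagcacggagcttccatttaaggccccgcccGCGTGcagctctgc

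In the *Bnip3* window the matches began 108, 99, 98 and 90 bases before the gene start, the middle pair being the overlapping strands of 1 CACGTG. The *Ldha* window held 4 matches, beginning 87, 86, 73 and 14 bases before the start, and that of *Slc2a1* also 4, at 153, 76, 51 and 16 bases. Neither *Adm* nor either of the 2 *Vegfa* starts in the table had a match in 250 bases, which says only that these letters are not in these windows. Of the 9 genes with a window, 5 held ACGTG on either strand (*Bnip3*, *Hif1a*, *Ldha*, *Pfkfb3* and *Slc2a1*), and 5 held either core. Of all 33469 windows in the table, 16.6% held ACGTG, 25.9% GCGTG and 36.7% either. A match is a description of sequence.

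The arrays had been scaled to 1 trimmed mean (249.1 to 249.8 over all arrays), and their median signal ran from 52.9 to 72.0. Hybridization fell on 3 days. Day 1 held 20 h replicate 1 with untreated replicate 1. Day 3 held 20 h replicate 2, the pair of 8 h arrays and untreated replicate 3. Untreated replicate 2 had day 2 to itself, with staining at 25 °C where the others had 35 °C. Day 3 arrays scored 19.3 to 31.1 on the leading principal component (39.5% of variance), and the rest -39.7 to -32.9. The excess of 3′ over 5′ actin signal, which grows as RNA is degraded or copied short, lay at 1.19 to 1.42 (log2) for day 3 arrays and at 0.73 to 0.98 for the remaining 3. The same measure for *Gapdh* did not part by day, at -0.342 to -0.099 for day 3 arrays and -0.206 to -0.12 for the remaining 3. The instrument file of untreated replicate 2 names mouse as the sample type, while its labels name a rat; it was kept. The tissue carried germ cell messages: *Prm1*, a protamine of sperm chromatin, had signals from 16767.1 to 28755.9 and *Tnp1*, a transition protein of spermatids, from 12998.8 to 21056.3 over the 7 arrays. Of the 20 h arrays, replicate 1 stood apart in the low-oxygen genes, so each 20 h value below is given for each array. A difference on the log2 scale is of log2(signal + 15), where 15 is the 20th percentile of all signals, and understates the change of dim genes.

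*Bnip3* encodes a mitochondrial outer-membrane receptor for mitophagy and cell death. Its signal was 209.9, 226.0 and 236.8 in untreated testes, 281.0 and 166.9 at 8 h, and 1400.3 and 133.4 at 20 h. Replicate 1 at 20 h was 4.98 times the highest other array, and replicate 2 at 20 h was the lowest of all 7. Against the untreated mean the log2 difference was 2.57 on 20 h replicate 1, a 5.92-fold excess, and -0.69 on 20 h replicate 2.

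*Vegfa* encodes the growth factor that drives sprouting and permeability of blood vessels. Its brighter probe set gave 95.7, 47.2 and 47.2 in untreated testes, 111.4 and 32.9 at 8 h, and 578.8 and 35.5 at 20 h. Its second probe set gave 10.2, 4.8 and 12.6, then 32.0 and 11.3, then 274.5 and 24.5. Both probe sets put 20 h replicate 1 far above the rest, by log2 differences of 2.98 and 3.59 from the untreated mean. They parted on 20 h replicate 2, which lay below the untreated range in the first and above it in the second, where the signals were near the 15 added before the log.

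*Adm* encodes adrenomedullin, a secreted vasodilator peptide. Its signal was 16.5, 43.7 and 33.5 in untreated testes, 43.3 and 17.4 at 8 h, and 322.3 and 18.4 at 20 h. No array other than 20 h replicate 1 was above 43.7, a level near the filter for dim probe sets (34.3 to 47.9), and 20 h replicate 1 lay 2.91 above the untreated mean on the log2 scale. The 7.54-fold excess on that array rests on dim untreated values.

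The 20 h arrays differed more in these 3 genes than in nearly any other. High signals on 20 h replicate 1 had chosen these genes, so their ranks add no independent evidence. Of 11552 genes, each represented by its brightest probe set that passed the filter, *Vegfa* ranked 1, *Adm* 3 and *Bnip3* 4 by the log2 difference of 20 h replicate 1 minus 20 h replicate 2, which was 3.56, 3.34 and 3.25. As 20 h means against untreated means, the log2 differences were 1.20 ± 0.85 for *Vegfa*, 1.25 ± 0.80 for *Adm* and 0.94 ± 0.71 for *Bnip3* (SE, n = 2 and 3). Without 20 h replicate 1 the direction turned, to -0.58, -0.42 and -0.69, so the sign of each 20 h mean was set by 1 animal. The same array set on its same-day control, untreated replicate 1, gave 2.65 for *Bnip3*, 2.42 for *Vegfa* and 3.42 for *Adm*; 20 h replicate 2 set on untreated replicate 3 gave -0.76, -0.30 and -0.54.

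**Figure D1:**
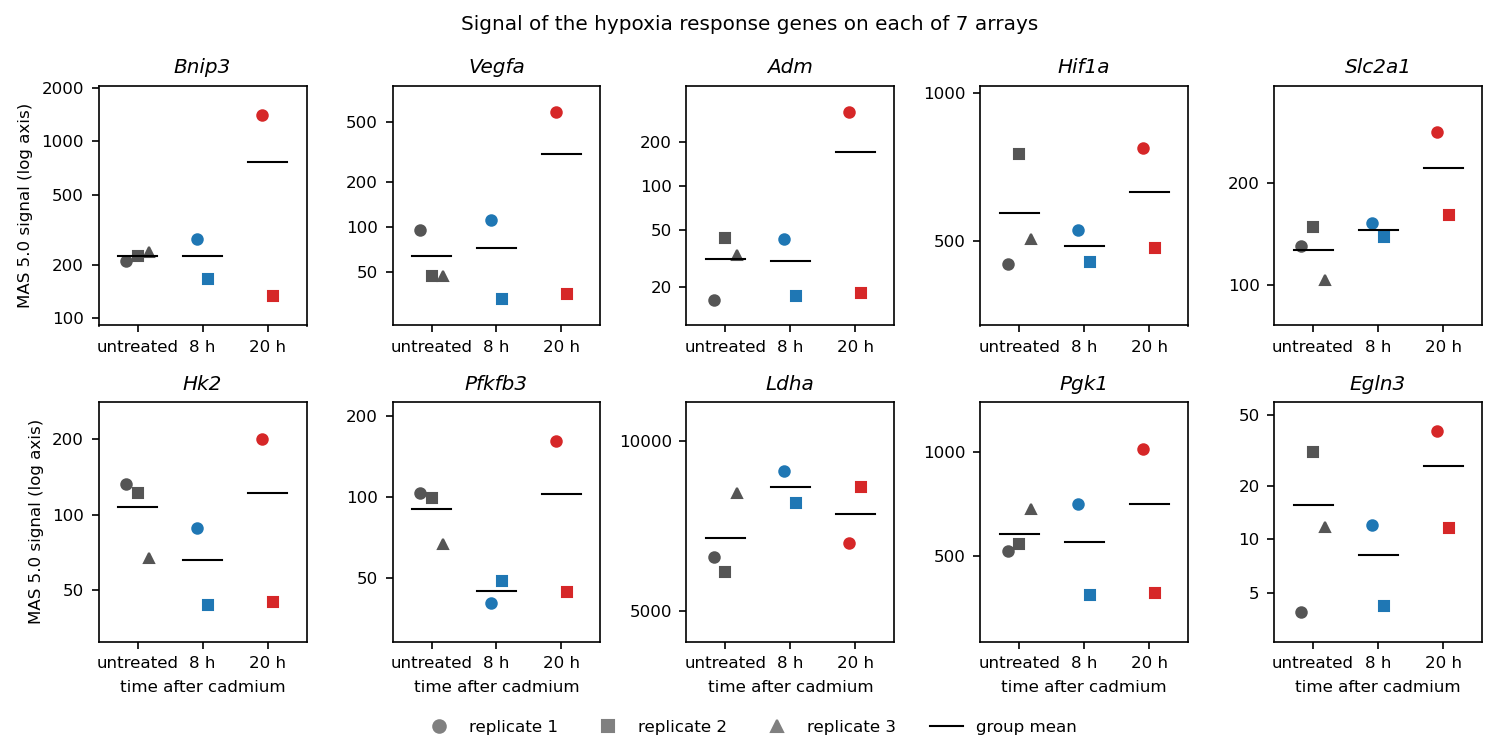
Signal of each of the 10 genes (brightest probe set, logarithmic axis) on every array, by time after cadmium; symbols mark replicate numbers and horizontal lines group means. In 9 of 10 genes the highest point is 20 h replicate 1, the array that chiefly chose the genes. The same held for 13.7% of all genes passing the filter, which *Egln3* did not pass. *Bnip3* is at 1400.3 there against at most 281.0 on the other 6 arrays, while *Ldha* is highest on 8 h replicate 1.

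The oxygen-sensing genes themselves varied less. *Hif1a*, the regulated subunit of the factor, gave 448.6, 751.8 and 505.1 in untreated testes, 524.9 and 452.8 at 8 h, and 773.9 and 484.2 at 20 h. Its highest value, on 20 h replicate 1, was 1.03 times that of untreated replicate 2, so the 20 h values overlapped the untreated ones; the protein, which is the regulated form, was not measured. *Egln3*, a prolyl hydroxylase that is itself a target of the factor, had signals of 3.9, 30.9 and 11.8 in untreated testes, 12.1 and 4.2 at 8 h, and 40.3 and 11.6 at 20 h. It was the 1 gene of the 10 that did not pass the filter on dim probe sets, and although 20 h replicate 1 was its highest array, its level there stayed below that array's filter level of 41.3.

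*Slc2a1* encodes the glucose transporter GLUT1. It gave 130.3, 148.3 and 104.1 in untreated testes, 153.0 and 139.0 at 8 h, and 283.6 and 161.7 at 20 h. By the brightest probe set of each gene, it was the only 1 of the 9 genes that passed the filter with all 4 cadmium arrays above the untreated mean, and the only 1 whose 20 h and untreated ranges did not overlap, a property of 15.5% of all genes. A second probe set of *Pgk1*, described below, also had both properties. So did the second probe set of *Vegfa*, which did not pass the filter. The log2 difference of the 20 h mean from untreated was 0.70 ± 0.26 (SE, n = 2 and 3), and it was 0.32 without 20 h replicate 1 and 1.08 without 20 h replicate 2. Same-day differences were 0.50 and 0.37 on the 8 h arrays and 1.04 and 0.57 on the 20 h arrays.

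*Hk2*, the inducible hexokinase that traps glucose in the cell, gave 132.3, 122.0 and 67.0 in untreated testes, 88.2 and 43.9 at 8 h, and 199.8 and 44.8 at 20 h. *Pfkfb3* makes the activator of phosphofructokinase, and its brightest probe set gave 103.7, 99.5 and 66.8 in untreated testes, 40.6 and 48.8 at 8 h, and 161.6 and 44.6 at 20 h. In both genes 20 h replicate 1 was the highest array, by factors of 1.51 and 1.56 over the next. The day was visible in both: *Hk2* lay at 43.9 to 88.2 on the 4 arrays of day 3 and at 122.0 to 199.8 on the 3 others, and *Pfkfb3* at 40.6 to 66.8 and 99.5 to 161.6. *Ldha* split by day the other way, and such a split was seen in 3 of 9 genes of the set and in 29.9% of all genes. The other *Pfkfb3* probe sets gave 98.7 and 27.2 on 20 h replicate 1, neither of them the highest of 7, so *Pfkfb3* was highest there by 1 of 3 probe sets.

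*Pgk1* encodes the somatic phosphoglycerate kinase. Its brightest probe set gave 517.4, 542.8 and 682.9 in untreated testes, 710.4 and 385.8 at 8 h, and 1024.2 and 391.9 at 20 h. A second probe set, of a type whose probes may match several transcripts, gave 660.3 and 449.1 at 20 h, against 416.5, 351.8 and 437.3 in untreated testes. The remaining probe set was below 11 on all arrays. On the 2 measurable ones 20 h replicate 1 was 1.44 and 1.47 times the highest other array. *Ldha*, the somatic lactate dehydrogenase subunit, gave 6233.2, 5859.6 and 8097.4 in untreated testes, 8837.2 and 7771.6 at 8 h, and 6595.4 and 8281.2 at 20 h. It was the 1 gene of the set with no excess on 20 h replicate 1, where its log2 difference from the untreated mean was -0.02.

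The comparison of 8 h with untreated testis asks whether a change was already present at the earlier time. Results of the 8 h arrays were also known when the genes were chosen, so its test is not independent of that choice. None of the genes changed by the test: 0 of the 9 that passed the filter had an adjusted p under 0.05 in limma, and 0% of all 20857 probe sets did. The log2 differences at 8 h ran from -0.80 ± 0.42 for *Pfkfb3* to 0.31 ± 0.17 for *Ldha* (SE, n = 2 and 3; limma, adjusted p = 0.836 for both). *Bnip3* stood at -0.04 ± 0.71 (limma, adjusted p = 0.993), *Vegfa* at 0.05 ± 0.85 and *Adm* at -0.04 ± 0.80 (limma, adjusted p = 0.994 for both). The median of the 9 genes was -0.04, that of all probe sets -0.08. With errors of this size a 2-fold change of *Bnip3*, *Vegfa* or *Adm* at 8 h was not detectable. With the hybridization day as a block the 8 h differences were -0.20 for *Pfkfb3*, 0.046 for *Ldha*, 0.74 for *Bnip3*, 1.00 for *Vegfa* and 0.83 for *Adm*, none of them past the threshold. The lowest value rests on the brightest *Pfkfb3* probe set, and the other that passed the filter gave -0.09 ± 0.54 (SE; limma, adjusted p = 0.984).

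The 8 h arrays also parted, in a smaller way. *Bnip3*, *Vegfa* and *Adm* were at 281.0, 111.4 and 43.3 on 8 h replicate 1 and at 166.9, 32.9 and 17.4 on 8 h replicate 2. For *Bnip3* and *Vegfa* these values bracketed the untreated range, with replicate 1 above its highest value and replicate 2 below its lowest. By its brightest probe set, *Pfkfb3* was the only gene of the 9 whose 8 h values, both lower, did not overlap the untreated ones, while 22.9% of all genes had no overlap. Its other probe set that passed the filter gave 53.2 and 52.5 at 8 h, inside the untreated range of 23.6 to 104.5. With the same-day control in place of the untreated mean, the differences of the brightest one were -0.56 and -0.36. Taken array by array against the untreated mean, 0 of the 9 genes were at least 2-fold higher on 8 h replicate 1 and 0 lower, where 0.641% and 1.9% of all genes were. On 8 h replicate 2, 0 were higher and 1, *Hk2*, was lower, where 0.39% and 2.06% of all genes were. The log2 difference of *Hk2* there was -1.01 from the untreated mean and -0.48 from the same-day control. For 20 h replicate 2, 0 were higher and 0 lower, where 0.372% and 2.35% were. Of the same 9 on 20 h replicate 1, the array that chose the genes, 4 were higher (*Bnip3*, *Vegfa*, *Adm* and *Slc2a1*) and 0 lower, where 1.17% and 1.38% of all genes were.

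Genes of the pathway outside the set were described from lists of HIF subunits and sensors, vascular and secreted targets, glucose uptake and glycolysis, and other targets. These held 56 further genes, of which 51 had a probe set of their own and 46 passed the filter. None rose or fell by the test: 0 of 46 passed in limma at 8 h and 0 at 20 h, where 0% of all probe sets passed. An unadjusted limma p under 0.05 was found for 1 of the 46 at 8 h and 1 at 20 h. Of all 20857 probe sets, 1088 and 648 had one. On 20 h replicate 1, 5 of the 46 were at least 2-fold above the untreated mean (1.17% of all genes), and 0 were at least 2-fold below. The counts on 20 h replicate 2 were 0 and 0. The 46 genes had a median log2 difference of 0.19 on 20 h replicate 1 and -0.08 on 20 h replicate 2, where all genes had -0.03 and -0.03. In 23 of them the highest value of 7 was on 20 h replicate 1, which held for 13.7% of all genes. These lists were drawn up with results of the same array known, and the counts add no independent evidence.

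Among other targets, 14 of 19 genes were highest on 20 h replicate 1, which held for 13.7% of all genes. *Ndrg1*, a stress-responsive cytoplasmic protein, gave 1313.1 and 293.2 at 20 h, against 488.0, 504.0 and 227.9 in untreated testes. *Lox*, which crosslinks collagen, gave 127.2 and 49.7 at 20 h, against 34.1, 37.2 and 63.7 in untreated testes. *Ero1a*, an oxidase of protein folding in the endoplasmic reticulum, gave 294.1 and 97.1 at 20 h, against 137.4, 147.7 and 70.4 in untreated testes. In each, by this brightest probe set, 20 h replicate 1 was the highest array and 20 h replicate 2 lay within the untreated range. By the second probe set 20 h replicate 1 was also highest, for *Ero1a* at 71.8 against 68.9 on untreated replicate 3. There 20 h replicate 2 was below the untreated range for *Lox* (21.2 against 26.9 to 28.2) and *Ndrg1* (422.7 against 429.6 to 442.2). By brightest probe set, *Ndrg1* and *Ero1a* also split by hybridization day. *Ndrg1* had 227.9 to 293.2 for day 3 arrays and 488.0 to 1313.1 for the remaining 3, and *Ero1a* had 70.4 to 125.1 and 137.4 to 294.1. Against the control of the same day, both 20 h arrays were higher by these probe sets. The log2 differences were 1.40 (replicate 1) and 0.34 (replicate 2) for *Ndrg1* and 1.02 and 0.39 for *Ero1a*. The second probe set of each gene did not split by day. On 20 h replicate 2 it gave 422.7 for *Ndrg1* and 49.0 for *Ero1a*, below the 429.6 and 68.9 of the same-day untreated replicate 3. A split by day of the brightest probe set was seen in 17 of the 46 further genes and in 29.9% of all genes. Among the 17 were also *Pfkl*, *Arnt*, *Egln1*, *Edn1*, *Eno1*, *Cited2* and *Slc2a3*. *Bnip3l*, the close relative of *Bnip3* with the same role in mitophagy, did not share its pattern: it gave 819.2 and 944.0 at 20 h, against 832.1, 978.2 and 923.7 in untreated testes. *Mxi1*, an antagonist of Myc, was also near its untreated level, at a log2 difference of -0.13 on 20 h replicate 1.

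Of the vascular and secreted targets, *Angptl4*, an inhibitor of lipoprotein lipase, gave 306.3 and 122.4 at 20 h, against 136.8, 75.6 and 120.1 in untreated testes, and 186.6 and 91.1 at 8 h. *Ankrd37*, a small ankyrin-repeat protein, gave 265.1 and 178.4 at 20 h and 264.3 and 213.8 at 8 h, against 163.5, 166.0 and 182.0 in untreated testes, so that 3 of the 4 cadmium arrays were above the untreated range. *Pgf*, a relative of *Vegfa*, and *Edn1*, the vasoconstrictor endothelin, were dim, at 50.2 and 77.4 on 20 h replicate 1. *Angpt2*, a vessel-destabilizing ligand, was below the untreated range on that array, at 47.3 against 79.6, 67.9 and 63.3.

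Of the 6 receptor genes that passed the filter, 2, *Kdr* and *Ramp2*, were at least 2-fold below the untreated mean on 20 h replicate 1. This held for 1.38% of all genes. Another 1, *Ramp1*, had its highest value there, as 13.7% of all genes did. *Kdr*, the main signalling receptor of Vegfa on endothelium, gave 17.0 and 29.4 at 20 h and 3.7 and 28.5 at 8 h, against 51.8, 59.5 and 55.7 in untreated testes, so that all 4 cadmium arrays were below the untreated range. This *Kdr* probe set passed the filter through the untreated arrays alone, and its cadmium values were under the filter level of their arrays. Its difference, and so the count of 2, is given without a test. A dimmer *Kdr* probe set, which did not pass the filter, did not share the fall. It gave 20.5 and 4.4 at 20 h and 1.8 and 4.2 at 8 h, against 8.1, 6.3 and 4.0 in untreated testes. *Ramp2*, which turns the calcitonin receptor-like receptor into a receptor for adrenomedullin, gave 52.7 and 83.5 at 20 h, against 149.8, 87.9 and 153.0 in untreated testes. *Flt1*, a second Vegfa receptor, gave 139.5 and 56.2 at 20 h, against 76.6, 104.7 and 148.1 in untreated testes. *Ramp1*, a partner of the same receptor as *Ramp2*, gave 391.7 and 191.5 at 20 h, against 238.5, 379.1 and 372.5 in untreated testes. By brightest probe set, 20 h replicate 1 was above and 20 h replicate 2 below the untreated mean for *Flt1*, *Ramp1*, *Vegfa* and *Adm*. The second *Vegfa* probe set had replicate 2 above it, and a dim *Flt1* probe set had replicate 1 below it. *Nrp1* and *Nrp2*, coreceptors, and *Ramp1* lay between -0.71 and 0.27 from the untreated mean on the log2 scale on the 4 cadmium arrays, and *Calcrl* and *Ramp3* did not pass the filter.

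In glucose uptake and glycolysis the genes divided. *Pfkl*, the liver-type phosphofructokinase, gave 215.4 and 85.6 at 20 h, against 125.5, 122.6 and 48.0 in untreated testes. *Pdk1*, which shuts pyruvate out of mitochondria, gave 281.4 and 141.7 at 20 h, against 158.8, 157.8 and 105.1 in untreated testes. *Slc16a3*, a lactate exporter, gave 71.2 and 19.4 at 20 h and 48.5 and 77.5 at 8 h, against 10.2, 39.8 and 60.3 in untreated testes, so that its highest array was 8 h replicate 2. *Car12*, a carbonic anhydrase named after its value was seen, stood at 0.86 on 20 h replicate 1 in log2 difference from the untreated mean. The other 12 of the 16 genes lay from -0.34 to 0.17 there, with the glycolytic enzymes *Eno1* at -0.13 and *Aldoc* at -0.34. The germ-cell isozymes *Ldhc* and *Gapdhs* were at -0.07 and -0.16 there, and at 0.43 and 0.39 on 20 h replicate 2; against the control of the same day they were at 0.03 and -0.03, and at 0.15 and 0.11.

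Of the oxygen-sensing genes outside the set, *Arnt*, the constant partner of Hif1a, gave 110.2 and 44.5 at 20 h, against 114.2, 106.3 and 45.3 in untreated testes. *Egln1*, the main prolyl hydroxylase, gave 424.2 and 238.9 at 20 h, against 354.1, 386.6 and 265.5 in untreated testes. *Egln2*, *Vhl*, the ubiquitin ligase subunit that removes Hif1a, and *Cited2*, a competitor for its coactivator, lay between -0.29 and 0.13 from the untreated mean on the log2 scale on both 20 h arrays. Of the 6 genes, 1, *Egln1*, was highest on 20 h replicate 1, near the 13.7% of all genes for which this held.

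**Figure D2:**
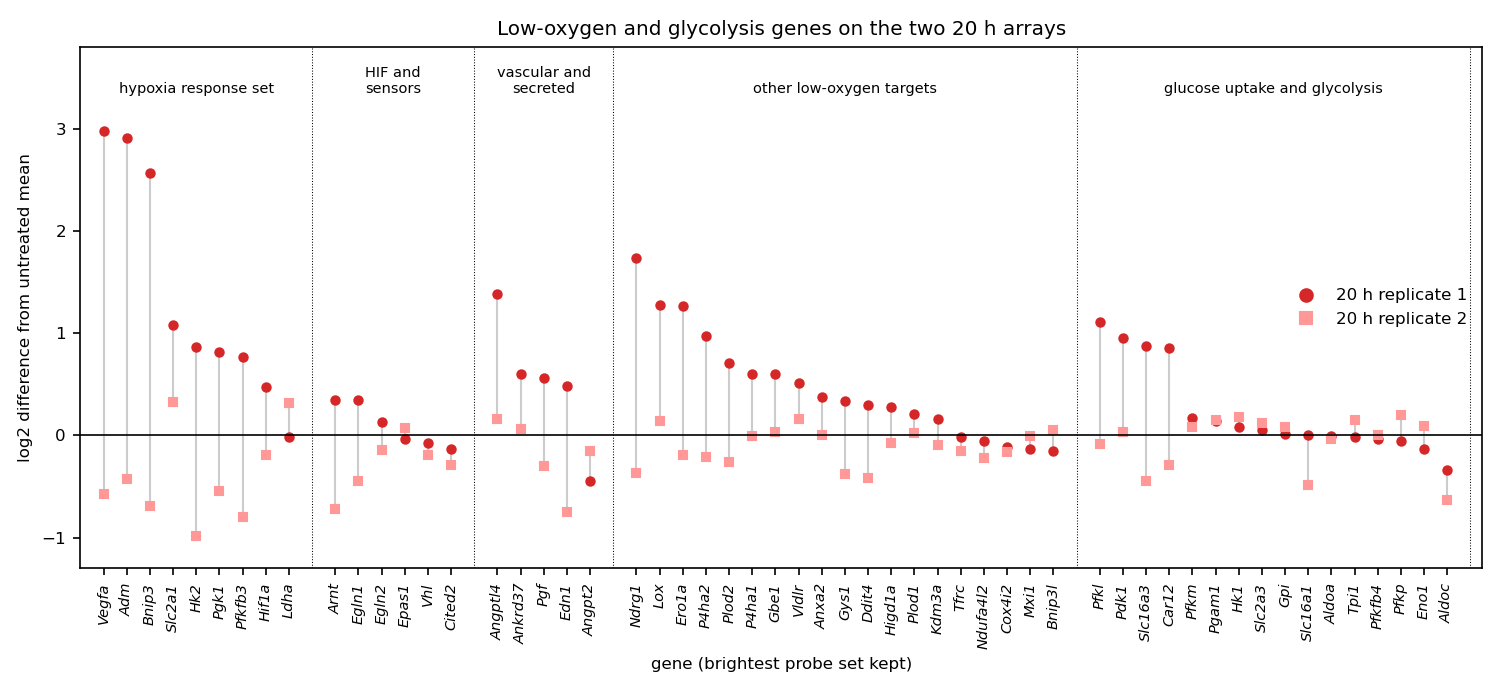
Log2 difference of log2(signal + 15) from the untreated mean on 20 h replicate 1 (dark circles) and 20 h replicate 2 (light squares), for 9 genes of the set and 46 further pathway genes, grouped by list. *Vegfa*, *Adm* and *Bnip3* lie at 2.57 to 2.98 on replicate 1 and below 0 on replicate 2, while 12 of the 16 glucose and glycolysis genes lie between -0.34 and 0.17 on replicate 1.

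The mean profile of *Bnip3*, *Vegfa* and *Adm* over the 7 arrays was set against 4346 probe sets of 3801 genes that passed the filter and ranged over at least 1 on the log2 scale. The 8 most similar genes outside the set were *P4ha2*, *Jun*, *Cebpb*, *Gadd45g*, *Hpx*, *Cp*, *F3* and *Sat1*, with Pearson correlations from 0.968 to 0.996 over 7 arrays. All points share the high array, 20 h replicate 1, which sets such values. *P4ha2*, a collagen prolyl hydroxylase and the 1 gene of these in the lists above, gave 913.9 and 393.2 at 20 h, against 452.6, 458.8 and 464.5 in untreated testes. *Hpx*, the heme-binding plasma protein hemopexin, gave 567.1 and 46.6 at 20 h, against 61.9, 48.2 and 89.7 in untreated testes. *F3*, tissue factor, which starts clotting, gave 347.7 and 96.1 at 20 h, against 94.1, 85.2 and 107.8 in untreated testes. The *Cp* match is by 1 of its probe sets and not its brightest. *Jun* and *Cebpb*, transcription factors of the stress response, gave 439.7 and 178.1 on 20 h replicate 1 and at most 165.1 and 56.3 on any other array. Within the set, correlation with the profile was 0.884 for *Pgk1*, 0.834 for *Slc2a1*, 0.790 for *Hk2* and 0.711 for *Pfkfb3*, over the same arrays.

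**Figure D3:**
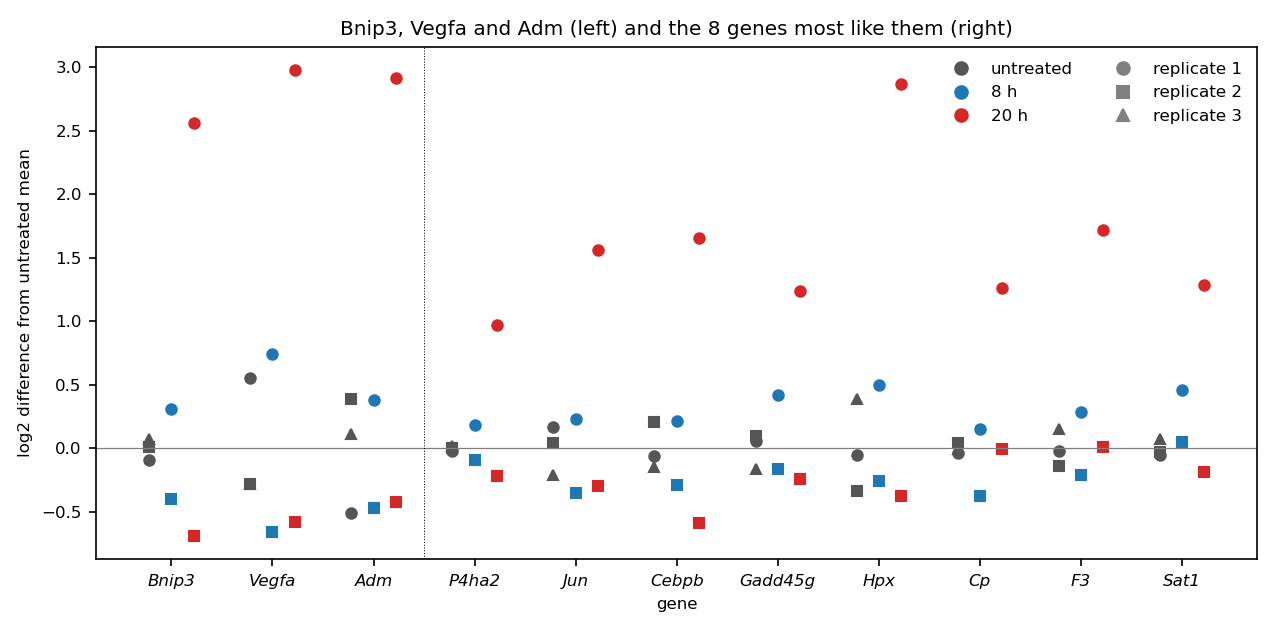
Log2 difference from the untreated mean for *Bnip3*, *Vegfa* and *Adm* and for the 8 genes with the most similar profile, with 1 point for each array, coloured by time after cadmium and shaped by replicate number. The points of 20 h replicate 1 lie between 0.97 and 2.98, and those of all other arrays between -0.69 and 0.75.

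Markers of some other cell types also varied between arrays, and not on the high array alone. In whole testis, fewer cells of a type and less RNA per cell cannot be told apart. Endothelial markers had a summed signal of 604.3 and 937.3 at 20 h and of 594.6 and 861.2 at 8 h, against 927.0 to 1156.0 in untreated testes. Measured markers below the untreated range numbered 8 of 13 on 20 h replicate 1 and 5 of 13 on 20 h replicate 2. At 8 h they numbered 9 of 13 on replicate 1 and 7 of 13 on replicate 2. Of all 14217 genes, 27.3%, 30%, 26.7% and 28.7% were below it on these arrays, in the same order.

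Leydig cell markers had a summed signal of 4948.0 and 9358.6 at 20 h and of 14617.2 and 9205.7 at 8 h, against 7804.4 to 10766.1 in untreated testes. Below the untreated range were 6 of 9 on 20 h replicate 1, and above it were 7 of 9 on 8 h replicate 1, where 19.9% of all genes were. *Cyp17a1*, an enzyme of androgen synthesis, was at 127.4 on 20 h replicate 1, at 3852.3 on 8 h replicate 1 and at 1116.0 to 2239.5 on the other 5 arrays. Red cell and platelet markers had a summed signal of 3716.3 and 2541.8 at 20 h, against 1786.9 to 2751.4 in untreated testes, with 1 of 5 above the untreated range on replicate 1, where 18.7% of all genes were. Macrophage markers had 6132.0 and 6191.2 at 20 h and 6202.6 and 6215.5 at 8 h, against 5319.5 to 5789.6 in untreated testes. The 11 genes were mixed, with 5 and 4 above the untreated range at 20 h and 6 and 4 at 8 h. Below it were 2 and 2 at 20 h and 1 and 2 at 8 h. Of all genes, 18.7%, 19.3%, 19.9% and 18.8% were above it on these arrays, and 27.3%, 30%, 26.7% and 28.7% below. Spermatid markers followed the day, with 157064.6 to 166128.9 on day 3 and 108690.6 to 118638.4 on days 1 and 2. None of these markers was at 0 on all arrays, and their part in the low-oxygen values was not tested.

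**Figure D4:**
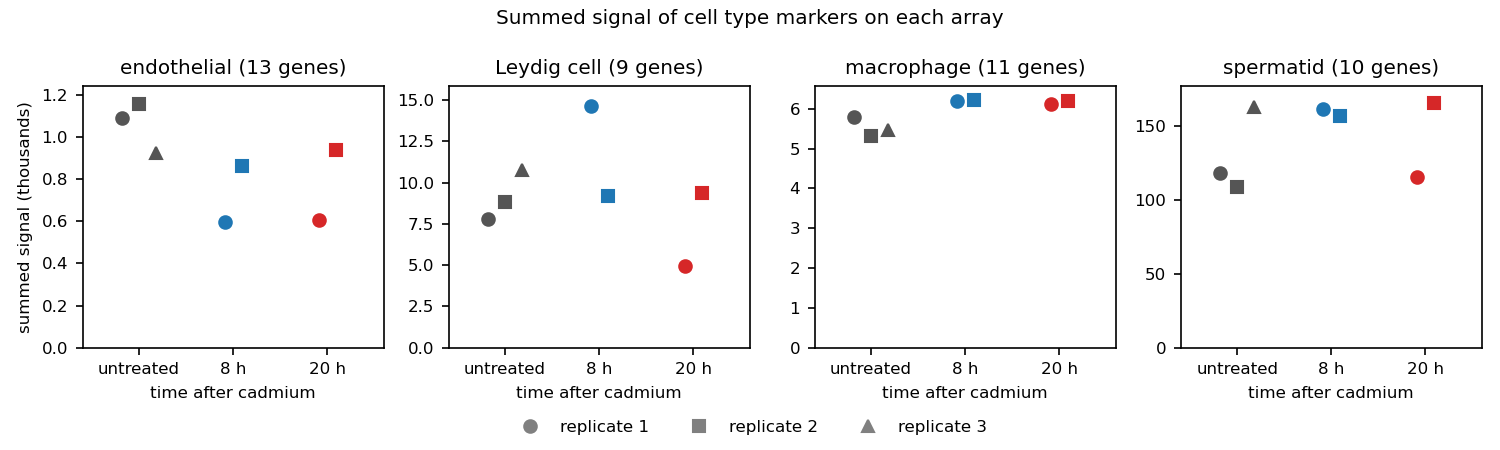
Summed signal of 4 sets of cell type markers on each array, by time after cadmium, with symbols for replicate numbers and axes that start at 0. On 20 h replicate 1 the endothelial sum is 604.3 and the Leydig sum 4948.0, both below the 3 untreated arrays, and the macrophage sum is 6132.0.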

How the data were processed

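Total RNA of whole testis was measured on 7 Affymetrix Rat230_2 arrays. The deposited values are signal intensities per probe set, made by the authors with MAS 5.0 (GeneSpring 7.2 is also named), per the design text. Per the file headers, the deposited experiment files hold other information, namely instrument settings, and no measured values; hybridization days came from them. The genome build is not given in the sources used here.

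Of 31099 probe sets, 57 controls were left out. GEO's platform annotation gave 20826 of the rest 1 gene symbol, 436 several and 9780 none; 20758 of those with 1 symbol were found in the RefSeq table (GRCr8). The deposited scaling was kept, and the 20857 probe sets that on 2 or more arrays exceeded the 40th percentile of that array entered limma 3.58.1 (R 4.3.3) on log2(signal + 15), with all 3 groups in 1 fit, an intensity trend, and Benjamini-Hochberg adjustment at 0.05. A gene's value is that of its brightest probe set passing the filter. Tables and motif searches used Python 3.11.15. The script was tested on simulated data. The number of arrays limits the precision. Replicates are labelled biological; whether numbers link animals is not stated. The correlation of same-numbered deviations between groups was 0.00, 0.09 and 0.14, so numbers were not used to pair.

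Named genes outside the set are the receptors, the 3 highest and 2 lowest of each list by 20 h replicate 1 against the untreated mean, the 8 most similar profiles, and *Prm1*, *Tnp1* and *Cyp17a1* for the tissue, unless stated otherwise. The members and lists were chosen with earlier results of these data known. Alternatives were another pseudocount, scaling, filter or trend, day or replicate number as a block, and leaving out each array.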

Additional observations from a re-analysis of the deposited data

How the results depend on the processing

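With 2 or 3 arrays in a group and 1 array that sets the 20 h values, the limits are those of single animals. Over all probe sets the count past an adjusted p of 0.05 in limma was 0 in each comparison (1088 at 8 h, 648 at 20 h and 401 for 20 h against 8 h at an unadjusted p under 0.05) and was 0 in 44 of the 48 counts from 16 alternatives. Leaving out 1 array at a time gave 0 to 1 at 8 h (1 without 8 h replicate 2), 0 to 8 at 20 h against untreated (8 without 20 h replicate 2) and 0 to 1 for 20 h against 8 h (1 without 8 h replicate 2 and 1 without 20 h replicate 2). With the replicate block the counts were 0, with 3759, 1919 and 830 at an unadjusted p under 0.05.

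Several 8 h differences changed sign with the settings, and the adjusted p of the 9 genes in limma ran from 0.208 to 1.00 over 16 alternatives. Quantile normalization gave 0.073 for *Bnip3* and 0.136 for *Adm*, and 75th percentile scaling gave 0.058 for *Bnip3* and 0.022 for *Adm*. With the hybridization day block the 8 h difference was 0.74 for *Bnip3*, 1.00 for *Vegfa*, 0.83 for *Adm*, 0.16 for *Hif1a*, 0.55 for *Slc2a1*, 0.18 for *Hk2* (-0.60 without the block), -0.20 for *Pfkfb3*, 0.046 for *Ldha* and 0.064 for *Pgk1*; by construction its day term also rests on the 20 h arrays. The replicate block gave -0.093 for *Vegfa* and 0.015 for *Adm*. The cause of the scaling and replicate changes was not tested. Leaving out 1 array gave -0.39 to 0.31 for *Bnip3*, -0.65 to 0.75 for *Vegfa*, -0.47 to 0.38 for *Adm*, -0.33 to 0.034 for *Hif1a* and -0.56 to 0.29 for *Pgk1*, the ends of the *Bnip3*, *Vegfa*, *Adm* and *Pgk1* ranges being the values without 8 h replicate 1 and without 8 h replicate 2.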

Other observations

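*Slc2a3*, the glucose transporter GLUT3, was represented by a pair of probe sets that disagreed; it was singled out after its values were seen. The brighter gave 5503.0 and 5758.4 at 20 h, against 5437.2, 4770.9 and 5730.4 in untreated testes. The dimmer gave 3103.0 and 767.1 at 20 h and 1145.7 and 989.4 at 8 h, against 2646.3, 2403.6 and 542.5 in untreated testes. The dimmer one ran from 542.5 to 1145.7 on the 4 arrays of day 3 and from 2403.6 to 3103.0 on the others, without overlap. The brighter one also split by day, the other way and by less, with 5721.1 to 6156.2 on day 3 and 4770.9 to 5503.0 otherwise.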
